A study of Mus musculus with 8 samples.

Results

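The intervals described here are the deposited peak lists of the histone variant H2A.Z (26455 intervals) and of histone H3 dimethylated at lysine 4 (H3K4me2, 41140 intervals), which together make up 67595 of the 137716 intervals in the 6 lists of the series. Each list was split by 1 rule: an interval was called shared when it had at least 1 bp in common with an interval of the other list, and unshared otherwise. Both libraries came from Beta-TC6, a line derived from a mouse pancreatic beta-cell tumour, harvested at confluence and fixed with the protein crosslinker DSG (2 mM, 30 min) and then with 1% formaldehyde (10 min). There was 1 library for each target, with no replicate, and every value below is a description of these 2 libraries without a test. By the headers of the lists H2A.Z was called against the input used for BMAL1 and CLOCK, although its sample description names the other, against which H3K4me2 was called, so the 2 lists differ in antibody, depth (18513695 and 26678241 tags) and control at once. The names of the 4 resulting classes, H2A.Z shared (10850), H2A.Z unshared (15605), H3K4me2 shared (10541) and H3K4me2 unshared (30599), are used throughout.

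H2A.Z replaces the common histone H2A in selected nucleosomes, where the remodelling complexes built on SRCAP and EP400 install it. It is known for the nucleosomes that flank the starts of genes and for part of the enhancers, at active genes and also at silent genes that are kept ready for use. H3K4me2 is laid down by the SET1 and MLL methyltransferases and marks promoters and enhancers, and in a differentiated cell broad domains of H3K4 methylation often cover the genes that define that cell.

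Promoter sequence is shown first, as examples of the gene starts under the strongest intervals of each class. For each class the 250 bases before the gene start are printed for the 2 genes whose promoters lay wholly inside the intervals with the most tags, 5′ to 3′ on the strand of the gene, with each CG pair in capitals. Coordinates and sequence are those of the RefSeq promoter table (GRCm38.p6, the coordinates of mm10). The promoters of Tgfb1, which encodes a secreted growth factor (chr7:25686752-25687001, plus strand, 21 CG), and Ubtd1, a ubiquitin-domain gene (chr19:41981513-41981762, plus strand, 22 CG), lay in H2A.Z shared intervals.
Tgfb1: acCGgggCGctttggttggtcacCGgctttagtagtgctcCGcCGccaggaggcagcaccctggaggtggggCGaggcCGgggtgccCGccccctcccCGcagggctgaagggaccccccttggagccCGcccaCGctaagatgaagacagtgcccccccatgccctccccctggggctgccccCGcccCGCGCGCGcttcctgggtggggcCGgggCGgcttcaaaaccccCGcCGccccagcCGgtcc
Ubtd1: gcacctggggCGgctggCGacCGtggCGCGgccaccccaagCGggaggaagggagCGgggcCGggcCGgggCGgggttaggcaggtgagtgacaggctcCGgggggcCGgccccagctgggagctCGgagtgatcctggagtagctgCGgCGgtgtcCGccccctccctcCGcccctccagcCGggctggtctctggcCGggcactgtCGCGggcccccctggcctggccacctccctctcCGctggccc
The promoters of Prmt6, an arginine methyltransferase gene (chr3:110251000-110251249, minus strand, 13 CG), and Wdr1, which encodes an actin-disassembly factor (chr5:38561700-38561949, minus strand, 29 CG), lay in H2A.Z unshared intervals.
Prmt6: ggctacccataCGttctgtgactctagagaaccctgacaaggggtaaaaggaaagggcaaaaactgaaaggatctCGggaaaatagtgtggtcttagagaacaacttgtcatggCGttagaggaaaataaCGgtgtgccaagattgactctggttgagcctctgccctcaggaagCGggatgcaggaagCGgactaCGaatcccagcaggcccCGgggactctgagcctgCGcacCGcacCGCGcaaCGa
Wdr1: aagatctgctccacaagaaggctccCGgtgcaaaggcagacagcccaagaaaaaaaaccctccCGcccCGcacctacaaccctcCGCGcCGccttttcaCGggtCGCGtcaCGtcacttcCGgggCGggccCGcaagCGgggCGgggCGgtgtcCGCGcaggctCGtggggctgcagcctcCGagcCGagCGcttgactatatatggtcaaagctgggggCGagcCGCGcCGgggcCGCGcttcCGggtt
Alternative promoters of the neuronal and endocrine zinc-finger gene Myt1l (chr12:29533135-29533384, plus strand, 5 CG) and of the ETS factor gene Etv1 (chr12:38783461-38783710, plus strand, 1 CG) lay in H3K4me2 shared intervals, but outside the H2A.Z intervals there.
Myt1l: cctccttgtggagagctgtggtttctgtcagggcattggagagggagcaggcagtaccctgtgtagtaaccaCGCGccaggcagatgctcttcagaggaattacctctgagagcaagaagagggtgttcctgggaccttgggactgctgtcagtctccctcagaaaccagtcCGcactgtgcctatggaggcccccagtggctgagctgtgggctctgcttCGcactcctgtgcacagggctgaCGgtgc
Etv1: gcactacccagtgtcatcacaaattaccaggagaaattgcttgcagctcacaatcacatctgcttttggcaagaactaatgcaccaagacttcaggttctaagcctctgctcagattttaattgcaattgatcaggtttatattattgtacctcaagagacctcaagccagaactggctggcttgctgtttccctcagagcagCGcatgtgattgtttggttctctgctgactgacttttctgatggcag
The promoters of the purine synthesis gene Paics (chr5:76951052-76951301, plus strand, 24 CG) and of Pax6, a homeodomain factor of islet cells (chr2:105682213-105682462, plus strand, 15 CG), lay in H3K4me2 unshared intervals.
Paics: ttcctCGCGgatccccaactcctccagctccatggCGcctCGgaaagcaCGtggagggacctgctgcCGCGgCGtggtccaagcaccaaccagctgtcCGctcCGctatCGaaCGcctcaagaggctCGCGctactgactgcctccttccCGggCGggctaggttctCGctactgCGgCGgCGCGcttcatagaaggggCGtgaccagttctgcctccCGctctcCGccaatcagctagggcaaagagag
Pax6: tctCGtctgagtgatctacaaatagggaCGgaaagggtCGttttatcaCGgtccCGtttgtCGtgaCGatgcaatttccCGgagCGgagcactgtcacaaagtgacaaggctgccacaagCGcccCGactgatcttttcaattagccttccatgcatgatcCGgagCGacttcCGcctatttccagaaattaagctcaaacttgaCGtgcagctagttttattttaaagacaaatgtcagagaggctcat
The printed promoters of both H2A.Z classes and of Paics and Pax6 held 13 to 29 CG pairs. The 2 alternative promoters inside the widest shared H3K4me2 domains held 5 and 1. Over all promoters of the table the median was 13.0, in a longer window of 300 bases.

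H2A.Z intervals met H3K4me2 in 41.0% of cases (Wilson 95% interval 40.4 to 41.6), and H3K4me2 intervals met H2A.Z in 25.6% (25.2 to 26.0). The intervals here and below cover counting error only. H3K4me2 intervals added up to 53.4 Mb, 2.67% of the genome size of 2000000000 bp named in the file headers, and H2A.Z intervals to 16.8 Mb, 0.838%. The 2 marks had 6.87 Mb in common, which was 41.0% of the H2A.Z length and 12.9% of the H3K4me2 length. Of the H2A.Z shared intervals 6341 (58.4%) lay wholly inside H3K4me2. Most H3K4me2 shared intervals (10112) held 1 H2A.Z interval, 420 held 2 and 9 held 3. In H3K4me2 intervals of at least 2000 bp the centre of H2A.Z fell in the middle 50% of the interval in 61.7% of 4303 pairs, in its outer parts in 33.5% and beyond its edge in 4.79%. Among the intervals at the edge of the rule, 5 pairs had exactly 1 bp in common, such as H2A.Z near Mrpl33 (14.6 normalized tags) on an H3K4me2 interval of 77.2, while 6 H2A.Z intervals only touched one, such as the interval near Hhat (9.18 normalized tags) beside an H3K4me2 interval of 49.1. Most unshared intervals were not near misses. The gap to the nearest H3K4me2 interval was at most 1 kb for 9.27% of the H2A.Z unshared intervals and over 50 kb for 25.8%, with a median of 19.2 kb.

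The overlap depended on the threshold over input. Only intervals with at least 4 times the input are in the lists, and at 8 times the input 9047 H2A.Z and 8855 H3K4me2 intervals were left, of which 3.90% and 3.95% overlapped the other list. Shared intervals held more input tags: 6.35 per kb of H2A.Z interval against 4.02 in unshared ones, and 12.0 per kb of H3K4me2 interval against 8.64. Fewer of them passed 8 times the input, 25.7% of H2A.Z shared against 40.1% of unshared intervals, and 11.1% against 25.1% for H3K4me2. The unshared intervals past this threshold had a median of 1.00 input tag in either list. The part of these low input counts in the loss of overlap was not tested.

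Shared intervals were the wider and more heavily tagged part of both lists. The median size was 631 bp for H2A.Z shared intervals (quartiles 500 and 861) against 500 bp for unshared ones (quartiles 500 and 500), and the smallest size, 500 bp, made up 46.0% and 81.3% of the classes. H3K4me2 shared intervals had a median of 1635 bp (1031 to 2425) against 784 bp (500 to 1331), and 37.2% against 11.9% were 2000 bp or wider. The Normalized Tag Count, the tags in an interval scaled by HOMER to 10000000 per library, had a median of 13.0 in H2A.Z shared intervals against 7.56 in unshared ones, a ratio of 1.72, and the lower quartile of the shared class equalled the upper quartile of the unshared class (9.18). For H3K4me2 the medians were 74.2 and 19.1, a ratio of 3.88, with a lower quartile of 40.1 in the shared and an upper quartile of 50.6 in the unshared class, so that the classes overlapped. Among intervals of 500 bp alone the ratios were 1.21 and 1.40. Per kb of interval the ratios were 1.29 for H2A.Z (19.4 against 15.1 tags per kb) and 1.90 for H3K4me2 (44.2 against 23.3). In the upper 50% of each list by score the H3K4me2 ratio was 1.93.

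**Figure D1:**
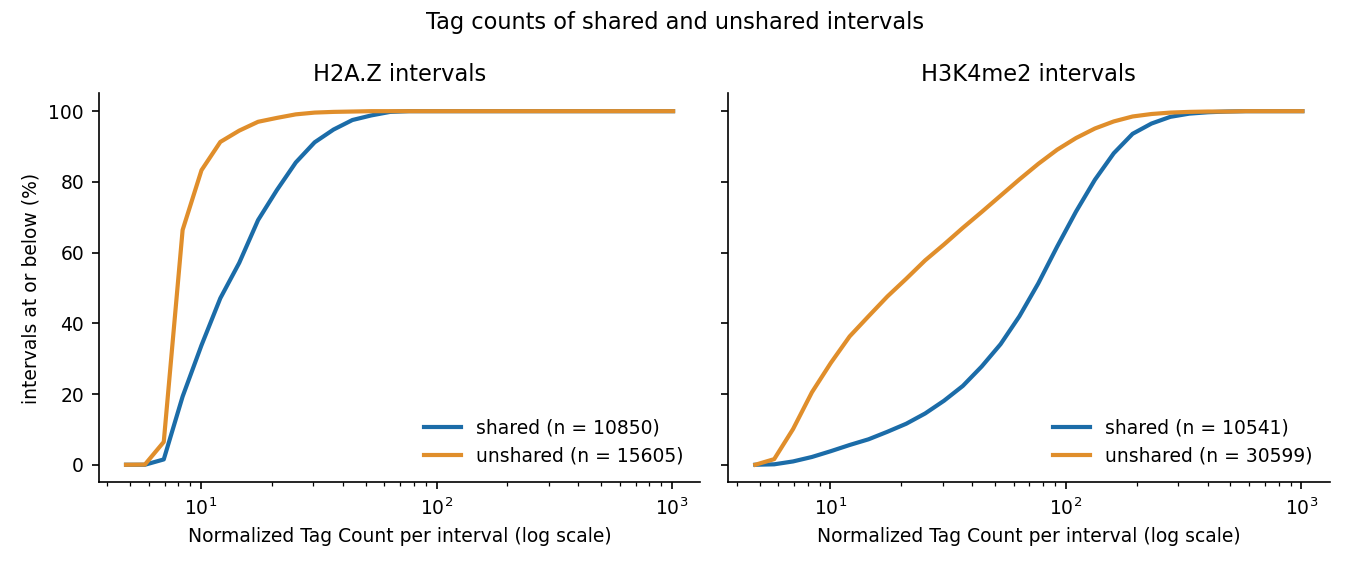
Cumulative share of intervals (y axis, percent) by Normalized Tag Count per interval (x axis, log scale) for H2A.Z (left) and H3K4me2 (right), shared intervals in blue and unshared ones in orange. In both lists the shared curve lies to the right, with medians of 13.0 against 7.56 for H2A.Z and 74.2 against 19.1 for H3K4me2.

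Many of the unshared H2A.Z intervals lay next to the calling limit. The score of HOMER was 14 or 15, at or just above the threshold of 14 tags, in 66.1% of them (10316), against 26.2% of the shared ones (2846). For H3K4me2 the scores of 17 and 18 held 13.9% of the unshared and 5.04% of the shared intervals. A weaker H3K4me2 signal under an unshared H2A.Z interval was not detectable in a list of called intervals.

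The chance of meeting the other mark went up with size in both lists. H2A.Z intervals of 500 bp were shared in 28.2% of cases (27.6 to 28.9), those of 501 to 749 bp in 52.1%, those of 750 to 999 bp in 72.7% and those of 1000 bp or more in 85.3% (83.7 to 86.7). H3K4me2 intervals went from 7.12% at 500 bp (6.65 to 7.62) through 15.7% and 34.3% to 51.9% at 2000 to 4999 bp (50.7 to 53.0). At 5000 bp or more the share was 52.8% of 371 intervals (47.7 to 57.9), which overlaps the interval of the class below. More than 1 kb from gene ends these last 2 classes were shared in 42.1% (40.5 to 43.8) and 47.9% (42.1 to 53.7) of cases. In the 5 quintiles of each list by Normalized Tag Count the share went from 14.8% in the lowest to 84.8% in the highest for H2A.Z and from 4.06% to 54.2% for H3K4me2. Wider intervals have more bases with which to meet the other list, and this was not separated from the signal. Across the 10979 overlapping pairs the tags per kb of the 2 marks had a Spearman correlation of 0.482, and the sizes one of 0.135. The pairs lie at the same loci and have base composition and mappability in common, so the value is given as a description.

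**Figure D2:**
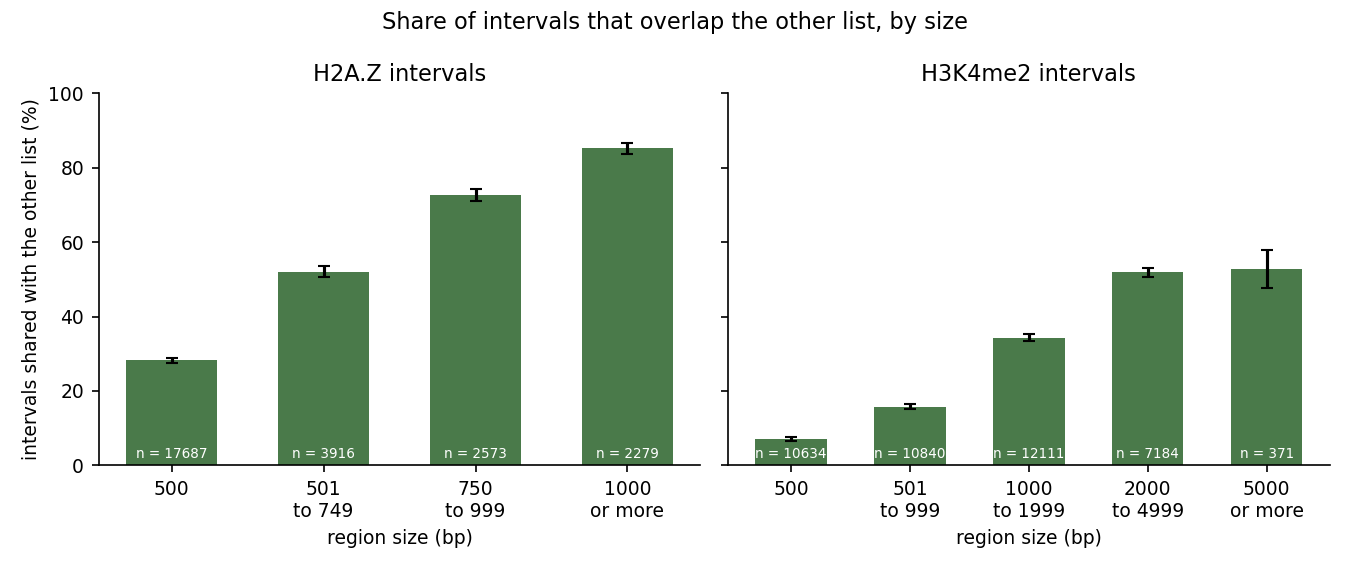
Percentage of H2A.Z (left) and H3K4me2 (right) intervals that overlap the other list (y axis) by region size in bp (x axis), with Wilson 95% intervals as error bars and the number of intervals in each bar. The share goes from 28.2% to 85.3% for H2A.Z and from 7.12% to 52.8% for H3K4me2.

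The classes lay in different parts of the genome. The centre of an H2A.Z shared interval was a median of 1.14 kb from the nearest end of a protein-coding gene, against 66.3 kb for unshared ones, and for H3K4me2 the medians were 1.35 kb and 17.8 kb. Of the H2A.Z shared intervals 48.3% (5236, 47.3 to 49.2) had their centre within 1 kb of such an end, and of the unshared ones 6.30% (983, 5.93 to 6.69), a difference of 42.0 percentage points. For H3K4me2 the shares were 44.0% (4637) and 16.4% (5016), a difference of 27.6 points. More than 50 kb from any gene end lay 54.9% of the H2A.Z unshared intervals, against 15.4% of the shared ones, and 12.1% of the unshared ones were over 500 kb away. Outside genes and more than 1 kb from a gene end lay 65.2% of H2A.Z unshared intervals, 25.4% of H2A.Z shared, 35.4% of H3K4me2 unshared and 25.1% of H3K4me2 shared intervals. The H3K4me2 unshared class was the one most often inside a gene and away from its ends (48.2%, against 26.3% to 30.9% in the other classes). Among intervals of 500 bp the gene-end share was 40.0% for H2A.Z shared and 4.35% for unshared intervals, a difference of 35.7 points, and 15.2% and 5.72% for H3K4me2, a difference of 9.47 points. At 8 times the input the differences were 14.1 points for H2A.Z and 17.2 points for H3K4me2.

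Read from the gene ends, 84.2% of the 6219 H2A.Z intervals within 1 kb were shared, 39.5% of those at 1 to 50 kb and 16.3% of those farther away. The corresponding H3K4me2 shares were 48.0%, 21.1% and 14.6%. In the lists as deposited H2A.Z at a gene end thus mostly came with H3K4me2, whereas H3K4me2 at a gene end came with H2A.Z in less than 50% of cases. Counted by genes, the lists as deposited gave 6533 with both marks within 1 kb of an end and 696 with H2A.Z only. With both lists cut at 8 times the input these counts were 196 and 1589. As 1589 is more than 696, some of these genes had an H3K4me2 interval that fell below the cut. The count is therefore not one of genes without H3K4me2.

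**Figure D3:**
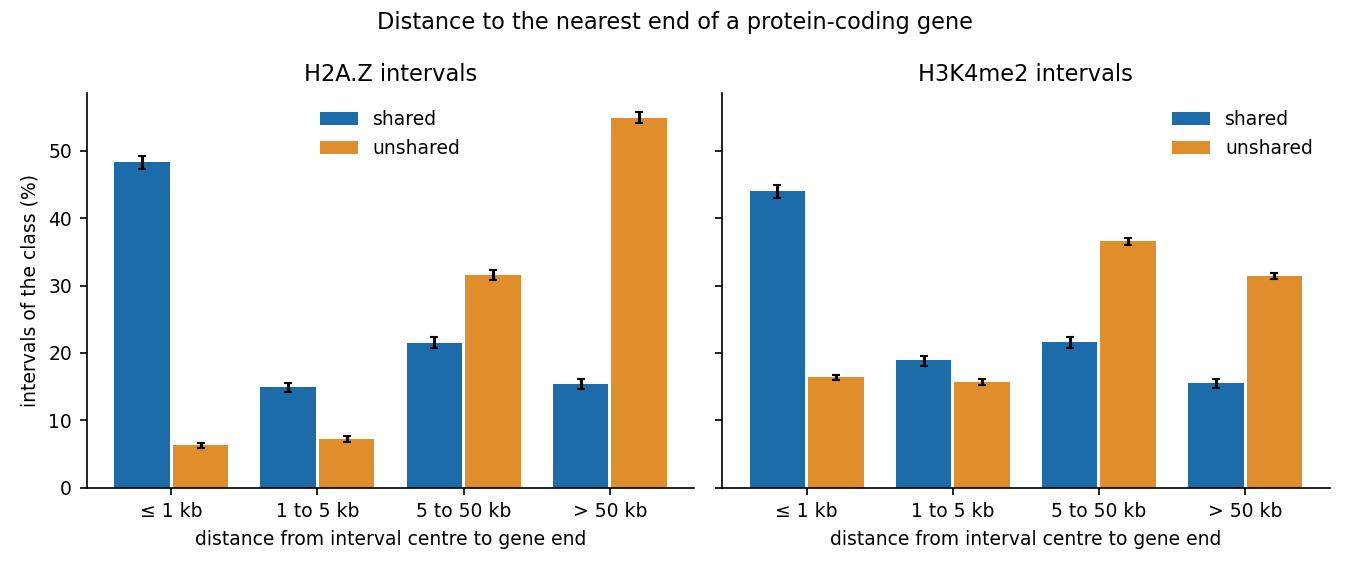
Percentage of intervals (y axis) by distance from the interval centre to the nearest end of a protein-coding gene (x axis), for H2A.Z (left) and H3K4me2 (right), shared in blue and unshared in orange, with Wilson 95% intervals. Within 1 kb lie 48.3% of shared and 6.30% of unshared H2A.Z intervals, and beyond 50 kb 15.4% and 54.9%.

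The RefSeq promoter table gives strand, so positions could be set against gene starts on all chromosomes but 18, for which no start was used here. Centres of H2A.Z shared intervals within 2000 bp of a start (5174) had a median position 157 bp downstream of it, with quartiles of -282 and 430 bp (negative values are upstream), and 64.8% were within 500 bp of the start. The 938 H2A.Z unshared intervals near a start had a median 22 bp downstream. H3K4me2 centres lay farther into the gene, with a median of 264 bp for shared and 305 bp for unshared intervals, and fewer were within 500 bp of the start (54.2% and 41.6%). The 300 bases around a start (250 before, 50 after) were then classed by the intervals that touched them. Of 21238 such promoters 15.3% touched both marks, 28.6% H3K4me2 only, 4.55% H2A.Z only and 51.6% neither. The median number of CG pairs, the dinucleotide itself read 5′ to 3′, was 22.0 with both marks, 21.0 with H3K4me2 only, 24.0 with H2A.Z only and 4 with neither, against 13.0 over all promoters. At least 10 CG pairs were present in 89.4%, 85.8%, 89.0% and 28.2% of these classes, and in 56.7% of all promoters. The letters TATAAA on either strand were found in 6.30%, 6.38%, 4.35% and 18.6%, and in 12.6% of all. CG content thus separated marked from unmarked promoters, and the 3 marked classes differed little from each other. Among promoters with H3K4me2, the share that also touched H2A.Z was 22.3% at 0 to 4 CG pairs, 30.7% at 5 to 9, 35.0% at 10 to 19 and 36.2% at 20 or more.

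The highest intervals of each class show the contrast at single genes. The H2A.Z shared interval with the most tags (91.3 normalized tags, 2982 bp, chr8:32007711-32010693) lay inside Nrg1, the neuregulin gene, 202 kb from its nearest end, on an H3K4me2 interval of 214. It was followed by the intervals at Tgfb1 (86.4), Ubtd1 (83.2) and Myb, the proto-oncogene for a transcription factor of progenitor cells (75.6). The next were inside Thrb, a thyroid hormone receptor gene (74.5, nearest to an end of LOC115488350), at Hs6st3, a heparan sulfate sulfotransferase gene (74.0), at Slc35a3, a nucleotide-sugar transporter gene (73.5), and near Clvs1 (73.5). Of these 8 intervals 2 overlapped H3K27ac, those at Ubtd1 and Slc35a3, and 0 overlapped PDX1. The widest, 3483 bp near the adaptor gene Bcar1, held 63.2 normalized tags, and the next, 3022 bp at Foxo1, which encodes a forkhead factor controlled by insulin signalling, held 68.6.

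H2A.Z unshared intervals with the most tags were all at genes. They were at Prmt6 (61.6 normalized tags), at Polb, a DNA repair polymerase gene (56.7), at Wdr1 (52.4), at Camkmt, a calmodulin methyltransferase gene (51.9), and at Mmd (49.7). Ttc28 (49.7), Map3k7, a kinase gene of inflammatory signalling (48.1), and Parp12 (46.5) followed. The nearest H3K4me2 interval was between 9.49 kb (Ttc28) and 85.3 kb (Parp12) away. H3K27ac overlapped 5 of the 8, those at Prmt6, Wdr1, Camkmt, Map3k7 and Parp12. The top of this class thus resembled the shared class in position, at 53 to 1131 bp from a gene end, unlike the class as a whole.

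The widest H3K4me2 domains fell on both sides of the rule. Among the 8 shared intervals with the most tags were those in Myt1l (915 normalized tags, 14920 bp), Etv1 (749), Tnrc18 (596), Elavl4, a neuronal RNA-binding protein gene (574), and Bcl11a, a zinc-finger repressor gene (515). Intervals nearest to Id2, which encodes an inhibitor of helix-loop-helix factors (541), and Parp8 (529) were also among them. The highest H2A.Z interval under these domains held 7.56 to 17.8 normalized tags in 7 of the 8 and 62.1 in Bcl11a. The median was 8.64 over all H2A.Z intervals and 13.0 over the shared ones. All 8 overlapped H3K27ac. Unshared H3K4me2 intervals with the most tags were nearest to Rhof (1002 normalized tags, 12299 bp, chr5:123133897-123146196), a domain that also reached the end of the H3K4 methyltransferase gene Setd1b. Then came Isl1, a LIM homeodomain factor of islet cells (879, 14667 bp, chr13:116293815-116308482, 90.3 kb from the nearest H2A.Z), the cell-cycle inhibitor genes Cdkn2c (831) and Cdkn1b (587), and Meox2 (611). The domain at Paics held 590, the domain inside Pax6 588 (14408 bp, chr2:105677061-105691469, nearest to an end of Elp4 and 212 kb from the nearest H2A.Z) and that inside St18, a zinc-finger gene of endocrine cells, 578. All 8 of these overlapped H3K27ac too, and 5 of 8 overlapped PDX1. Of the 371 H3K4me2 intervals of 5000 bp or more 196 were shared and 175 were not, and 31.6% and 41.7% of them overlapped PDX1.

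Genes were then classed by the intervals within 1 kb of either of their outer ends. Intervals at starts farther inside a gene were not counted. Both marks were found at 6533 of 21887 protein-coding genes (29.8%), H3K4me2 only at 5678 (25.9%), H2A.Z only at 696 (3.18%) and neither at 8980 (41.0%). In 6111 of the 6533 genes with both (93.5%) an H2A.Z and an H3K4me2 interval at the gene had at least 1 bp in common. H2A.Z was thus found at 7229 genes in all (33.0%) and H3K4me2 at 12211 (55.8%). Of the genes with H3K4me2 53.5% also had H2A.Z, and of those with H2A.Z 90.4% also had H3K4me2. The strongest H3K4me2 interval at a gene had a median of 98.2 normalized tags (67.1 to 140) where H2A.Z was present and 85.8 (50.6 to 130) where it was not, so that the quartiles overlapped widely. H2A.Z at genes without H3K4me2 had a median of 13.0 normalized tags, against 15.7 at genes with both. With intervals of at least 8 times the input, 196 genes had both, 1290 H3K4me2 only and 1589 H2A.Z only. A gene counted there for 1 mark only can hold an interval of the other mark below the cut.

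Lists of genes of known function show where the classes fell. They were set against the percentages over all protein-coding genes just given. Genes that define the beta cell nearly all carried H3K4me2, in 19 of 20 transcription factor genes and 20 of 20 insulin and granule genes, against 55.8% of all genes. This was not particular to them. H3K4me2 was also at 22 of 24 core clock genes, 17 of 18 genes for H2A.Z deposition and removal and 16 of 18 genes of H3K4 methylation. Cytosolic ribosomal protein genes carried it in 70 of 76 cases, and genes of glucose sensing and secretion in 14 of 20. Of markers of other pancreatic cells 7 of 25 carried it, and of markers of cells outside the pancreas 6 of 24. The acinar genes Ptf1a and Cpa1, the endothelial genes Pecam1 and Cdh5 and the leukocyte gene Ptprc had neither mark at their ends. The endothelial receptor gene Kdr had both (26.6 normalized tags of H3K4me2 and 9.72 of H2A.Z), and so did 4 of the 25 markers of other pancreatic cells, among them the duct genes Krt7 (68.6 and 7.56) and Muc1 (114 and 16.2). The acinar lipase gene Pnlip had H2A.Z only (8.10). Among markers of other islet cells the glucagon gene Gcg had H3K4me2 (124 normalized tags) and the somatostatin gene Sst had it at 7.87.

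Among the 20 beta-cell transcription factor genes, 9 had both marks (45.0%, against 29.8% of all genes), 10 had H3K4me2 only, 0 had H2A.Z only and 1 had neither. H2A.Z was present in 47.4% of those with H3K4me2, against 53.5% over all genes. Pdx1, which encodes the homeodomain factor central to the beta cell, had 397 normalized tags of H3K4me2 in an interval of 6434 bp and 8.64 of H2A.Z in one of 500 bp. The activator gene Mafa had 187 and 7.56, in intervals that did not overlap. The forkhead gene Foxa2 had 197 and 9.72. These intervals did not overlap each other either, but at Foxa2 the H2A.Z interval was shared, through another H3K4me2 interval. Rfx6, a factor of islet development, had 245 and 29.7, and Mnx1 had 246 and 11.9. Pdx1, Mafa and Foxa2 thus held less H2A.Z than the median of 15.1 over all genes with H2A.Z. They held more H3K4me2 than the median of 93.0 over all genes with H3K4me2. Over all H2A.Z intervals the median was 8.64. Over all 9 genes with both, the median H2A.Z signal was 18.4 normalized tags, against 15.1 over all genes with H2A.Z. H3K4me2 without H2A.Z was found at the homeodomain gene Nkx6-1 (388 normalized tags, 8112 bp), at Nkx2-2 (35.2), at the helix-loop-helix gene Neurod1 (239), at the ends of Pax6 (524, an interval apart from the domain of 588 inside the gene), at Isl1 (879) and at Insm1 (97.1). St18 had neither at its ends, and the centre of the domain inside it lay 128 kb from the nearest end.

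Insulin and granule genes showed H3K4me2 without H2A.Z in 13 of 20 cases (65.0%, against 25.9% of all genes) and both marks in 7. All 20 had H3K4me2, and 35.0% of them had H2A.Z, against 53.5% of all genes with H3K4me2. That share was 35.3% in genes for the deposition and removal of H2A.Z and 44.3% in cytosolic ribosomal protein genes. Both insulin genes had H3K4me2. Ins2 had 134 normalized tags of H3K4me2 (2911 bp) and 18.4 of H2A.Z (1097 bp), and Ins1 had 17.2 of H3K4me2 (1188 bp) and no H2A.Z interval. The granin gene Chga had both marks (259 and 8.10), as did the prohormone convertase gene Pcsk1 (44.6 and 30.2), the granule membrane gene Ptprn (183 and 7.56) and Vgf (395 and 7.56). Pam, which amidates peptides, had 118 and 9.18. H3K4me2 only was found at the amylin gene Iapp (283), at the granin genes Chgb (144), Scg2 (248), Scg3 (48.0) and Scg5 (153). The median H2A.Z signal over the 7 genes with both was 8.10 normalized tags, against 15.1 over all genes with H2A.Z.

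Genes of glucose sensing and secretion had both marks in 9 of 20 cases (45.0%, against 29.8% of all genes). H3K4me2 only was at 5 of the 20, near the 25.9% of all genes. H2A.Z only was at 1 of the 20 (against 3.18%) and neither at 5 (against 41.0%). Of the 14 with H3K4me2, 64.3% also had H2A.Z, against 53.5% of all genes with H3K4me2. The calcium channel gene Cacna1a had 157 normalized tags of H3K4me2 and 11.9 of H2A.Z, the incretin receptor gene Glp1r 227 and 7.02, the fatty acid receptor gene Ffar1 228 and 10.8, and the SNARE gene Stx1a 87.0 and 18.4. H3K4me2 only was found at the glucose transporter gene Slc2a2 (50.2), at the channel genes Abcc8 (109) and Kcnj11 (216), and at the SNARE genes Snap25 (109) and Vamp2 (136). Syt7, a calcium sensor of exocytosis, was the gene with H2A.Z only (22.1 normalized tags, 867 bp). Genes with neither within 1 kb of an outer end included Cacna1c, Cacna1d, Gipr and Rph3al.

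Core clock genes had both marks in 13 of 24 cases (54.2%, against 29.8% of all genes) and H3K4me2 only in 9 (37.5%, against 25.9%). Neither mark was within 1 kb of an outer end at 2, which were Arntl and Tef. H2A.Z was present in 59.1% of those with H3K4me2, against 53.5% over all genes. Both marks were found at Per2 (323 normalized tags of H3K4me2 and 13.5 of H2A.Z), Cry1 (224 and 18.4), Cry2 (263 and 13.5), Nr1d2 (90.7 and 25.4), Rora (110 and 17.3) and Rorb (110 and 8.64). Clock (123), Npas2 (39.7), Per1 (196), Per3 (173), Nr1d1 (196) and Hlf (107) had H3K4me2 only. The period and REV-ERB families thus held members of both kinds. At Nr1d2 the H2A.Z and H3K4me2 intervals given did not overlap each other, although that H2A.Z interval was shared, through another H3K4me2 interval.

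The genes that place these marks were looked at in the same way. Of 18 genes for the deposition and removal of H2A.Z, 6 had both marks (33.3%, against 29.8% of all genes). H3K4me2 only was at 11 (61.1%, against 25.9%) and neither at 1. H2A.Z was thus present in 35.3% of those with H3K4me2, against 53.5% over all genes. The H2A.Z gene H2az1 had 178 normalized tags of H3K4me2 and 11.9 of H2A.Z, while its paralogue H2az2 (165) had H3K4me2 only, as did the remodeller gene Srcap (45.7). Ep400, which encodes the other remodeller, had 58.1 and 21.1. Of 18 genes of H3K4 methylation 9 had both marks (50.0%, against 29.8% of all genes), and H2A.Z was present in 56.2% of those with H3K4me2. Among the 9 were Kmt2c (121 and 32.4), Wdr5 (138 and 33.5), Rbbp5 (177 and 23.8) and Kdm1b, a demethylase gene (141 and 33.5). The median H2A.Z signal of those 9 was 25.4 normalized tags, against 15.1 over all genes with H2A.Z. At H2az1 and at Kmt2c the H2A.Z interval given did not overlap the H3K4me2 interval given, but it was shared, through another H3K4me2 interval.

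Hox genes, which pattern the body axis, held less of both marks than all genes together. H2A.Z was found at 0 of 39 Hox cluster genes, against 33.0% of all genes. H3K4me2 was found at 10 (25.6%, against 55.8% of all genes), with 7.12 to 24.4 normalized tags. Regulators of other lineages were nearer to the background, with both marks at 9 of 40 (22.5%, against 29.8% of all genes), H3K4me2 only at 13 (32.5%, against 25.9%) and neither at 18 (45.0%, against 41.0%). Those with both included the kidney and brain gene Pax2 (118 normalized tags of H3K4me2 and 8.64 of H2A.Z), Lhx2 (78.0 and 14.6), Lhx9 (30.7 and 8.64) and Twist1 (66.7 and 9.72). The list also counts Foxa1, which had both (13.5 and 14.6) but is not confined to other lineages, since it acts in the pancreas too. At Foxa1 the intervals given did not overlap each other, although the H2A.Z interval was shared, through another H3K4me2 interval. Myod1, Myf5, Pax7, Pax8, Sox1 and Sox10 had neither mark at their ends. Cytosolic ribosomal protein genes, which every cell uses, had both marks in 31 of 76 cases (40.8%, against 29.8% of all genes). H3K4me2 only was at 39 (51.3%, against 25.9%). H2A.Z was present in 44.3% of those with H3K4me2, against 53.5% over all genes.

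**Figure D4:**
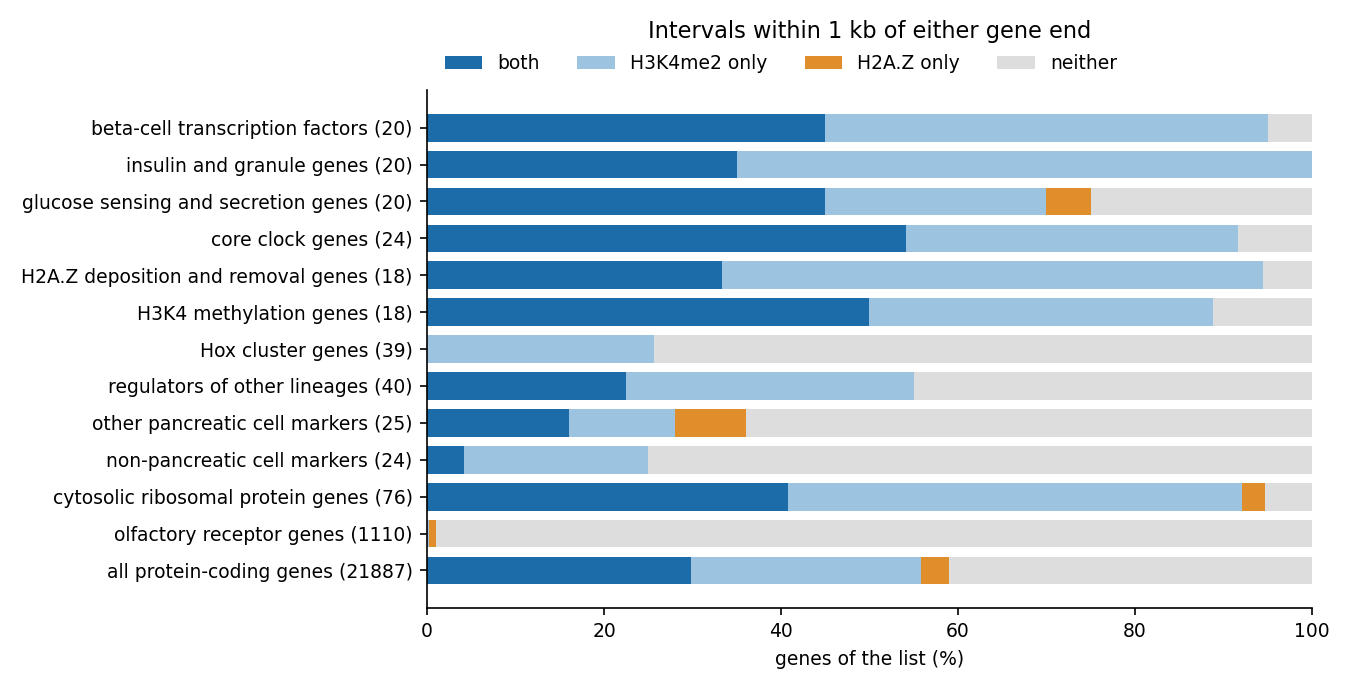
Percentage of the genes in each list (x axis, number of genes in brackets) with both H2A.Z and H3K4me2, H3K4me2 only, H2A.Z only or neither within 1 kb of a gene end. All protein-coding genes stand at the bottom (29.8% with both). The insulin and granule genes have the most H3K4me2 only (65.0%), followed by the genes for H2A.Z deposition and removal (61.1%).

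The other lists of the series were not used by the rule and give further readouts. The acetylation mark H3K27ac, found at active promoters and enhancers, overlapped 55.1% of H2A.Z shared intervals (54.2 to 56.1) and 10.9% of unshared ones (10.5 to 11.4). The unshared H2A.Z intervals divided by position, with H3K27ac at 42.7% of those within 1 kb of a gene end (420 of 983) and at 8.79% of the others (1286 of 14622). Over all H3K4me2 intervals H3K27ac was more frequent in shared (58.9%) than in unshared ones (48.5%). It was so too more than 1 kb from gene ends (60.0% and 46.8%). Among wider intervals of like size the order turned, whatever their distance. At 1000 to 1999 bp H3K27ac overlapped 52.8% of shared and 65.7% of unshared intervals, and at 2000 to 4999 bp 76.5% and 83.9%. More than 1 kb from gene ends these values were 59.7% and 68.7%, and 82.0% and 88.2%. There the values at 500 bp were 35.4% and 25.7%, and at 501 to 999 bp 42.4% and 43.3%.

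PDX1 peaks were in 13.4% of H3K4me2 shared intervals (12.7 to 14.0) and in 21.5% of unshared ones (21.0 to 22.0), although shared intervals were wider. Away from gene ends the shares were 19.7% and 24.7%, and there they were 14.0% and 13.7% at 500 bp, 17.1% and 26.5% at 501 to 999 bp, 19.9% and 36.7% at 1000 to 1999 bp, 22.3% and 30.6% at 2000 to 4999 bp and 37.8% and 45.6% at 5000 bp or more. Within 1 kb of gene ends the shares were 5.26% and 4.92%. In the H2A.Z list the order was the reverse, with PDX1 in 6.37% of shared and 2.48% of unshared intervals. Distal H2A.Z intervals with PDX1 were shared in 61.5% of 979 cases and those without in 26.0% of 19257. BMAL1 peaks were in 2.21% of H2A.Z shared and 0.737% of unshared intervals, and CLOCK peaks in 2.06% and 0.276%. For H3K4me2 the values were 3.16% and 1.37% for BMAL1 and 3.08% and 1.41% for CLOCK, and their part that comes with interval size was not tested.

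Unshared H2A.Z was spread unevenly over the chromosomes. Chromosomes 4, 5, 8, 12 and 14, the 5 with the most such intervals, held 49.4% of them (7704 of 15605), against 28.7% of H2A.Z shared and 28.3% of H3K4me2 intervals and 23.6% of protein-coding genes. On chromosome 4 there were 1855 unshared and 783 shared H2A.Z intervals, and on chromosome 14 there were 1559 and 474. Chromosome 9 had 103 unshared and 401 shared intervals, chromosome 2 had 259 and 657, and chromosome X had 100 and 266. The share of H2A.Z intervals that met H3K4me2 thus ran from 23.3% on chromosome 14 to 79.6% on chromosome 9, leaving out chromosome Y with 2 intervals. The shared share of H3K4me2 intervals stayed between 22.7% and 28.3% on chromosomes 1 to 19 and X. Input tags per kb of H3K4me2 interval were 11.9 on chromosome 4, 11.6 on 5, 12.1 on 8, 9.98 on 12 and 10.8 on 14, against 6.65 on chromosome 9, 8.41 on 2 and 6.14 on X, while chromosome 19 had 12.6 with 487 unshared and 384 shared H2A.Z intervals. Over the 5 chromosomes together the value was 11.4, against 9.28 on the others. In H2A.Z intervals, which were called against the other input, it was 5.27 against 5.08. The part of the input in these counts was not tested. Without those 5 chromosomes, a choice made after the counts were seen, 49.5% of H2A.Z intervals were shared and the gene-end difference was 41.5 points.

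**Figure D5:**
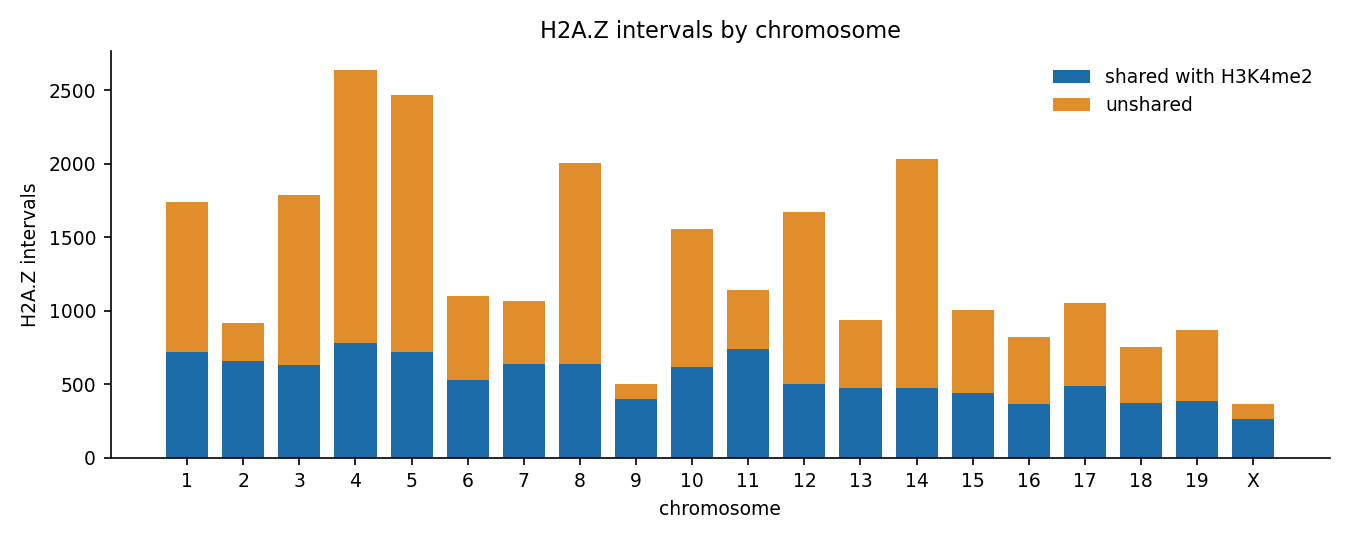
Number of H2A.Z intervals (y axis) on chromosomes 1 to 19 and X (x axis), split into intervals shared with H3K4me2 (blue) and unshared ones (orange). Shared intervals number between 266 and 783 per chromosome, whereas unshared ones range from 100 on X to 1855 on chromosome 4.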

How the data were processed

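ChIP-seq was measured in 1 library per target, and 2 of the 6 lists, H2A.Z and H3K4me2, are described here. The submitters' processing notes name Bowtie 1.1.1, HOMER (without a version) and the mouse build mm10. Per the file headers the authors called each library alone with findPeaks in the histone style, which stitches windows of 500 bp into variable regions, with a Poisson p-value of 0.00100, a Poisson tag threshold of 14 (H2A.Z) or 17 (H3K4me2), 4 times the input and a p-value of 1e-04 over input. The deposited Normalized Tag Count is a signal scaled to 10000000 tags. The deposited score, the deposited fold over input (a ratio), the deposited region size in bp and the deposited input tags were used within their own list. The description of the H2A.Z sample names the input of H3K4me2, while the list's header and the title of the input sample name that of BMAL1 and CLOCK, and the header was followed. The lists for H3K27ac, PDX1, BMAL1 and CLOCK served for overlaps only.

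Intervals overlapped when they had at least 1 bp in common, with end minus start as the length. Distances ran from interval centres to either end of 21887 protein-coding genes (RefSeq, GRCm38.p6, a table without strand or exons), so that exons, introns and UTRs were not determined. Gene starts came from the RefSeq promoter table. The 8 highest and 4 widest intervals of each class and up to 6 genes per list and class, in list order, were eligible for naming, and some of these genes are not reported here. All 324 listed genes matched a gene. The members and the 12 gene lists were chosen with earlier results of these data known. No test was run, since intervals and genes are not replicates, and Wilson 95% intervals cover counting error only. Alternatives changed the overlap, the fold, score or size of the intervals, the distance rule, the gene table and the chromosomes. The overlap and distance code was tested on simulated intervals first. Computation used pandas 2.3.3 and NumPy 2.4.6 under Python 3.11.15, statsmodels 0.14.6 for Wilson intervals, SciPy 1.17.1 for rank correlations and matplotlib 3.10.9 for figures.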

Additional observations from a re-analysis of the deposited data

How the results depend on the processing

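The differences between shared and unshared intervals in size, tag count and gene-end share kept their direction under each alternative run, except that the size ratio of H2A.Z came to 1.00 at 8 times the input. In the order of H2A.Z and then H3K4me2, the shares of shared intervals were 36.2% and 22.4% with an overlap of 50% of the shorter interval, 46.5% and 30.9% with a gap of up to 1 kb, 3.90% and 3.95% at 8 times the input, 43.3% and 27.3% in the upper 50% by score and 28.2% and 7.12% for intervals of 500 bp. The size ratios under the first 4 of these were 1.27 and 2.20, 1.25 and 1.91, 1.00 and 2.49, and 1.28 and 1.55. Tag count ratios were 1.57 and 3.73 with the gap, 1.27 and 4.68 at 8 times the input, 1.55 and 1.93 in the upper 50%, 1.21 and 1.40 at 500 bp and 1.29 and 1.90 per kb. Gene-end differences in percentage points were 40.4 and 29.8 with 50% overlap, 40.2 and 25.4 with the gap, 14.1 and 17.2 at 8 times the input, 32.1 and 23.6 in the upper 50%, and 35.7 and 9.47 at 500 bp. They were 49.6 and 30.8 within 5 kb, 45.3 and 33.0 from interval edges, 44.7 and 29.0 with all RefSeq genes, and 40.3 and 26.0 from gene starts (chromosome 18 not used here). With both lists cut at 8 times the input 196 genes had both marks past the cut, 1290 H3K4me2 only and 1589 H2A.Z only. Without the 5 chromosomes with the most unshared H2A.Z, chosen after seeing the data, 49.5% of H2A.Z intervals were shared. Of 73 alternative values 23 stayed within the counting interval or, for gene counts, within 1.5 times the value reported. Where values moved, the cause was not tested. Depth limits both lists: no interval has a score under 14 (H2A.Z) or 17 (H3K4me2). No paired analysis was possible because each target had 1 library and no test was run.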

Other observations

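Each interval was also assigned to its closest gene, where a gene end lay no more than 50 kb away. The H2A.Z shared intervals fell to 7443 genes and were most numerous at Pax2, a developmental transcription factor gene, with 10 intervals, followed by Bhlhe40, a clock repressor gene, and Sipa1l1 with 6 each. Pax2 also led the H3K4me2 shared class with 9. The H2A.Z unshared intervals fell to 4664 genes and were most numerous at the axon guidance genes Sema3a (14) and Sema3d (13), followed by Plppr5 (12). H3K4me2 unshared intervals were most numerous at Gng12 and Ubl3, with 15 each, then Rere and Slc7a14, with 14 each. No test was made of these counts.

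Olfactory receptor genes, which are expressed in sensory neurons, had neither mark at the ends of 1099 of 1110 genes (99.0%, against 41.0% of all protein-coding genes). The remaining 11 were 8 with H2A.Z only (0.721%, against 3.18% of all protein-coding genes) and 3 with H3K4me2 only (0.270%, against 25.9%). Both marks were at 0, against 29.8% of all protein-coding genes.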
